A study of Mus musculus with 6 samples.

Results

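The 37 genes described here encode the enzymes that make cholesterol and fatty acids, the SREBP factors that drive those enzymes, and proteins that move, store or export sterol. They were taken as the array probes whose RefSeq accession belongs to one of 37 named genes, whatever their signal. All 37 were found, on 50 probes, among 25899 features tested (15646 of them genes with a symbol), and each passed the filter on dim probes, which asks that a probe be well above background on at least 3 of 6 arrays. Their RNA was compared between J1 mouse embryonic stem cells of strain 129S4/SvJae kept for 24 h with 3 µM SB431542 (3 arrays) and J1 cells kept for 24 h with the solvent DMSO (3 arrays). Both groups grew without feeder cells on gelatin, in serum replacement medium with the cytokine LIF at 1000 U/ml. SB431542 blocks the kinases of ALK4, ALK5 and ALK7, which are receptors for activin, Nodal and TGF-beta. J1 is a single line derived from the inner cell mass. The labels do not state that replicates were separate cultures, so each p-value speaks only to the scatter among these 6 arrays, part or all of which may be technical. The comparison asks whether transcripts for lipid synthesis respond to the receptor inhibitor under self-renewal conditions.

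Cholesterol is built from acetyl-CoA through mevalonate, isoprenoid units and squalene, and the sterol ring is then trimmed in a chain of enzyme steps. SREBP proteins are made as membrane-bound precursors in the endoplasmic reticulum. When sterol is scarce, the escort protein Scap carries them to the Golgi to be cut, and the released part enters the nucleus and switches on most genes of both pathways. When sterol is plentiful, Insig proteins hold Scap back and the same genes are expressed less. Excess sterol activates LXR receptors, which raise exporters such as Abca1 and Abcg1. Dividing cells need new membrane lipid, which these pathways can supply.

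Scap, the escort protein, and Scd1, a stearoyl-CoA desaturase, rose with SB431542. Cyp51, the lanosterol demethylase, and Scd2, a second stearoyl-CoA desaturase, fell. The 4 changes were small, from 1.22-fold to 1.24-fold higher and to 0.823 and 0.794 of the DMSO level. The other 33 genes did not pass the test, among them both SREBP factors, both Insig genes, all 7 mevalonate genes, and the genes of the fatty acid chain builders Acaca and Fasn. Thus 4 of 37 (10.8%) passed, against 12.6% of all features. By direction, 2 rose, against 5.19% of features, and 2 fell, against 7.38%. The test was limma on log2 signal with Benjamini-Hochberg adjustment over all features, with an adjusted p under 0.05 counted as changed.

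None of the 4 calls stood when any one DMSO array was left out, or without SB431542 replicate 1 (0 of 37 genes in each of these fits). Without SB431542 replicate 2, Scd1 and Scd2 remained, and without SB431542 replicate 3, all 4 remained and Abca1 was added.

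The 37 genes moved little in either direction. Their median log2 change was -0.04, against 0.02 over all features, with 16 above 0 and 21 below. Of all 25899 features 14044 lay above 0 and 11855 below. The median size of a change was 0.11 on the log2 scale, against 0.14 for all features, and the largest was 0.35. The 95% interval of the log2 change lay within -0.5 and 0.5, a factor of 1.41, for 35 of the 37 genes, against 64.8% of features. The exceptions were Fads2 and Abca1. These bounds are wider than the changes that passed, so they leave room for changes of that size in genes that did not pass. All 37 probes were well above background on every array, as were 93.3% of features, and the median SD within groups was 0.07 on the log2 scale, against 0.11. For 12 of the genes (32.4%) the 2 groups of arrays did not overlap, 5 with the higher values in SB431542 and 7 with the lower, against 36.0% of features.

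**Figure D1:**
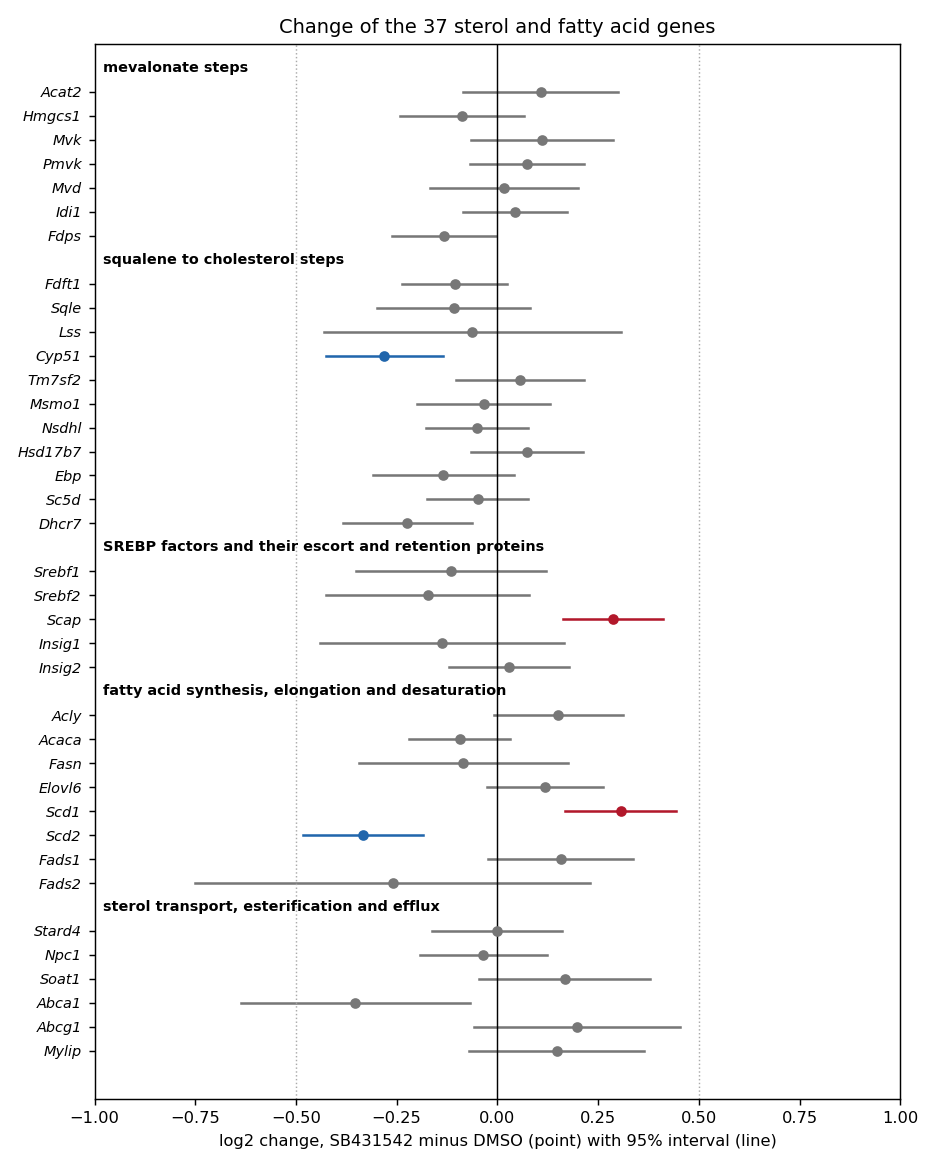
Log2 change (SB431542 minus DMSO) of each of the 37 genes with its 95% interval from limma, grouped by role, with genes that rose in red, genes that fell in blue and the rest in grey. The 4 coloured genes lie between -0.33 and 0.31, and only the intervals of Fads2 and Abca1 reach past the dotted lines at -0.5 and 0.5.

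The arrays and cells showed the following background. The 75th percentile of the processed signal, to which every array was scaled, ran from 453 to 565, and the share of spots well above background from 63.9% to 66.2%. Across features, Pearson's r was 0.9973 to 0.9976 for pairs of DMSO arrays, 0.9949 to 0.9965 for pairs of SB431542 arrays, and 0.9911 to 0.9940 for mixed pairs. SB431542 replicate 3 lay alone on slide 2 with its own scan. The 5 transcripts chosen to check the treatment, Lefty1, Lefty2, Smad7, Skil and Pmepa1, fell, and Smad7 changed by -4.59 ± 0.05 (SE, limma adjusted p = 1.89e-06). All 8 stem cell markers were well above background on every array and 3 of them fell, Dppa5a, Tdgf1 and Utf1. Of all features, 5.19% rose and 7.38% fell. The summed signal of the 8 markers, in multiples of the 75th percentile, was 609 to 632 in DMSO and 448 to 498 in SB431542. Most of that sum came from Dppa5a, with a mean log2 signal of 8.58 in DMSO and 8.09 in SB431542. Of 6 trophoblast markers 2 rose, Tfap2c and Gata3, and 1 fell, Krt8 (sums 12.1 to 12.8 and 27.1 to 27.6). Tfap2c made up most of these sums, with a mean log2 signal of 3.49 in DMSO and 4.71 in SB431542. Every other trophoblast marker averaged below the 75th percentile in both groups. Of 5 neuroectoderm markers 3 fell (sums 4.37 to 4.49 and 3.10 to 3.39), and of 6 primitive endoderm markers 1 rose (sums 0.872 to 0.928 and 0.884 to 0.996). Of 5 tested fibroblast markers 2 fell, Col1a2 and Dcn (sums 2.18 to 2.34 and 1.76 to 1.96). Dcn was well above background on only 3 of 6 arrays, the fewest the filter allows, so its fall rests in part on values near background. The fibroblast markers Postn and Lum were not well above background on any array. The part of these shifts in the lipid gene results was not tested, and in bulk RNA fewer cells of a type and less RNA per cell cannot be told apart.

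The RefSeq promoter table (GRCm38.p6) held 28 of the 37 genes, with 36 start sites. The 250 bases before a start are shown for Cyp51 and Scap, the called members with an entry, because these moved in opposite directions. They are also shown for Hmgcs1, the one gene of the 28 with a window matching TCACNCCAC, the sterol regulatory element core searched. Other forms of that element were not searched for, so a window without this core may still hold one. Hmgcs1 was added after its window had been searched. Capitals mark the motifs found on either strand, and each line runs 5′ to 3′ on the strand of the gene.
Cyp51 (chr5:4104698-4104947, minus strand): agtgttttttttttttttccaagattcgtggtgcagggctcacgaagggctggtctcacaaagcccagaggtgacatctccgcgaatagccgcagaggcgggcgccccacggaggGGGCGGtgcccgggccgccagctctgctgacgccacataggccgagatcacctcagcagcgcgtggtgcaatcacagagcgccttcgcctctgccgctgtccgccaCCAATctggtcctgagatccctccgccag
Scap, first of 2 starts (chr9:110333038-110333287, plus strand): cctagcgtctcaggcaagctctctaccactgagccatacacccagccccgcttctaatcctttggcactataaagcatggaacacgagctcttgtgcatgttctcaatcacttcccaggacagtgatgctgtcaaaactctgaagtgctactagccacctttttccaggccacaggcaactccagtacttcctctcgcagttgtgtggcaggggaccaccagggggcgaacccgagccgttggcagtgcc
Hmgcs1 (chr13:119690101-119690350, plus strand): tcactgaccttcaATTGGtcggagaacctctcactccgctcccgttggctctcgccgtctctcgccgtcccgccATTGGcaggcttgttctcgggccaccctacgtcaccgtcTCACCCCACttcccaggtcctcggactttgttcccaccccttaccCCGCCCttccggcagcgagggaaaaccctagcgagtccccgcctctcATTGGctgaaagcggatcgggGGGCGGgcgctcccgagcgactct
In Hmgcs1 the sterol element core TCACCCCAC began 137 bases before the start (position -137), with 3 CCAAT boxes (read as ATTGG on the opposite strand) and 2 GGGCGG boxes around it. Of the motifs searched, Cyp51 held 1 CCAAT box and 1 GGGCGG box, and the first window of Scap held none. The window of the second Scap start held CACGTG and GGGCGG.

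Over the 36 windows, searched on both strands, the letters TCACNCCAC were found in 1 (2.78%), against 1.05% of all 32851 windows of the table, and TCACCCCAC, which is contained in it, in the same 1 window, against 0.496%. The box CCAAT, bound by NF-Y, was found in 22 windows (61.1%), against 33.8%. GGGCGG, bound by Sp1, was found in 26 (72.2%), against 32.7%, and CACGTG, the E-box, in 6 (16.7%), against 6.02%. Some windows of 1 gene overlap. A match describes letters only, and windows without one say nothing of the factor.

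Among the 7 mevalonate genes 0 passed the limma test (1 had an unadjusted p under 0.05), with 5 log2 changes above 0 and 2 below. Hmgcs1, the synthase that condenses acetyl-CoA units ahead of mevalonate, had log2 signals over the 75th percentile of 6.01, 6.01 and 5.91 on DMSO arrays 1, 2 and 3 and of 5.95, 5.90 and 5.81 on SB431542 arrays 1, 2 and 3. The groups overlapped, and the log2 change was -0.09 ± 0.06 (SE, 95% interval -0.24 to 0.07, limma adjusted p = 0.417). Fdps, farnesyl diphosphate synthase, read 5.997, 6.08 and 6.07 in DMSO and 5.95, 5.89 and 5.90 in SB431542. It was the only mevalonate gene whose groups did not overlap, at -0.13 ± 0.05 with an interval of -0.26 to -0.0046 (adjusted p = 0.168). The thiolase gene Acat2 (0.11), the kinase genes Mvk (0.11) and Pmvk (0.07), the decarboxylase gene Mvd (0.02) and the isomerase gene Idi1 (0.04) had intervals that together spanned -0.17 to 0.30.

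From squalene to cholesterol, 1 of 11 genes fell and 0 rose (7 of the 37 genes in all, or 18.9%, had an unadjusted p under 0.05, against 27.7% of features). Of the 11 log2 changes 9 lay below 0, with a median of -0.06, against 11855 of 25899 features below 0. Fdft1, Lss and Msmo1, among these 9, crossed 0 in 1 alternative setting each. Cyp51, which removes a methyl group from lanosterol, read 0.92, 0.86 and 0.89 in DMSO and 0.62, 0.53 and 0.68 in SB431542. Each SB431542 array lay below each DMSO array, and the gene fell by 0.28 ± 0.06 on the log2 scale (interval of the log2 change -0.43 to -0.14, limma adjusted p = 0.0327). Dhcr7, a reductase late in the chain, read 1.25, 1.18 and 1.28 in DMSO and 0.92, 1.05 and 1.07 in SB431542. Its groups did not overlap either, but its change of -0.22 ± 0.07 did not pass (adjusted p = 0.0841). It passed with normexp background correction and quantile normalization applied together (0.0310) and with trended, robust variance moderation (0.0327).

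Sqle, the epoxidase that is the first oxygen-dependent step, read 5.18, 5.07 and 5.19 in DMSO and 5.11, 5.10 and 4.90 in SB431542. Its groups overlapped and its log2 change was -0.11 ± 0.08 (interval -0.30 to 0.08). Fdft1, the squalene synthase gene, had lower values on every SB431542 array (change -0.11 ± 0.05, adjusted p = 0.259), and Hsd17b7, a ketoreductase gene, had higher ones (0.07 ± 0.06, adjusted p = 0.450). Lss, the lanosterol synthase gene, spread most of the 11 within SB431542, at 0.61, 0.75 and 1.16, around DMSO values of 0.88, 0.82 and 1.01. Its interval was correspondingly wide, from -0.43 to 0.31. Ebp (-0.13), an isomerase gene, Nsdhl (-0.05), Sc5d (-0.05), Msmo1 (-0.03) and Tm7sf2 (0.06), which encode dehydrogenase, desaturase, methyl oxidase and reductase steps, overlapped between groups.

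Of the 5 regulators of SREBP, Scap alone passed. Scap read 3.92, 3.88 and 3.83 in DMSO and 4.17, 4.18 and 4.14 in SB431542, so that every SB431542 array was above every DMSO array. The log2 change was 0.29 ± 0.05 (interval 0.16 to 0.41, limma adjusted p = 0.0186), or 1.22-fold. Srebf2, the SREBP gene tied mainly to sterol synthesis, read 0.97, 0.98 and 0.89 in DMSO and 0.91, 0.85 and 0.56 in SB431542, with a change of -0.17 ± 0.10 (adjusted p = 0.336). The lowest of these values came from SB431542 replicate 3, the array on slide 2, and without it the change was -0.07. On the other Srebf2 probe every SB431542 array lay below every DMSO array, with a change of -0.19 ± 0.06 that did not pass (limma adjusted p = 0.123 with every probe tested). Srebf1, the gene tied mainly to fatty acid synthesis, read -2.37, -2.06 and -2.22 in DMSO and -2.33, -2.24 and -2.42 in SB431542, with groups that overlapped in part and a change of -0.12 ± 0.10. Insig1, itself a classic SREBP target, read 0.26, 0.30 and 0.37 in DMSO and 0.10, 0.43 and -0.02 in SB431542. The DMSO values lay inside the SB431542 range, and the interval of the change ran from -0.44 to 0.17. Insig2 had a log2 change of 0.03 ± 0.06 on its brightest probe and of 0.22 ± 0.05 on its other probe, which has another transcript accession and did not pass on its own (limma adjusted p = 0.0526 with every probe tested).

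**Figure D2:**
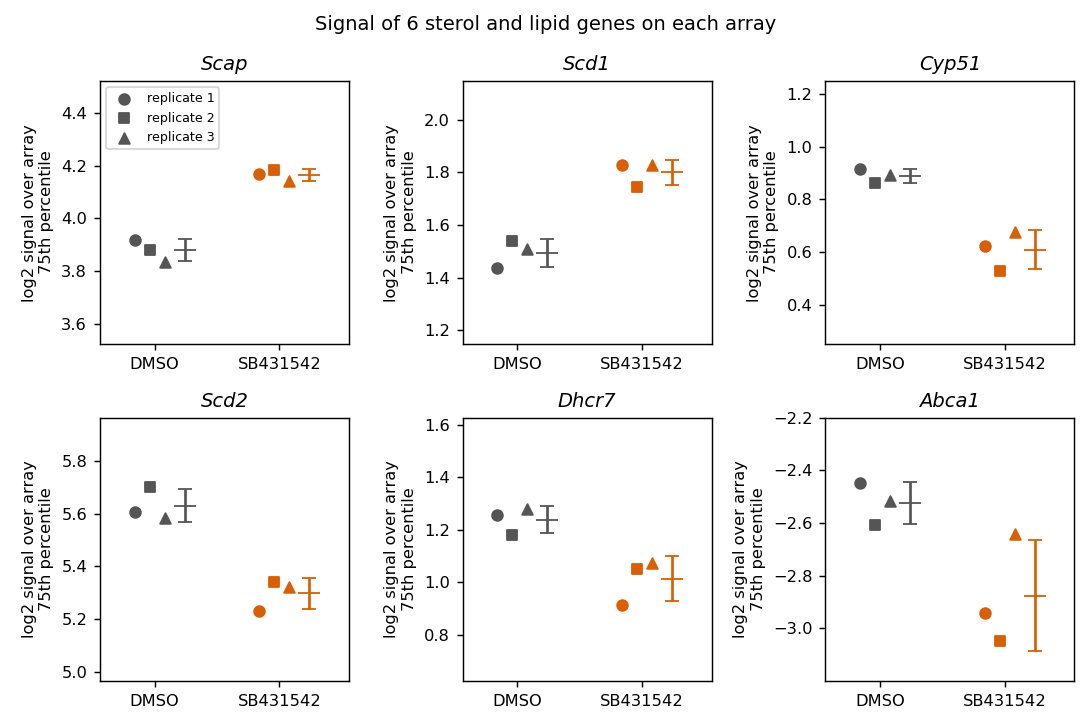
Log2 signal over the array's 75th percentile of 6 genes on each array (symbols mark replicates 1 to 3, bars the mean ± SD of 3 arrays), each panel spanning 1 log2 unit. The groups of arrays do not overlap for any of the 6, and Abca1 shows the widest spread, with SB431542 replicate 3 nearest to DMSO.

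Fatty acid genes held 1 rise and 1 fall among 8, both in stearoyl-CoA desaturases, which put the first double bond into saturated chains. Scd1 read 1.44, 1.54 and 1.51 in DMSO and 1.83, 1.75 and 1.83 in SB431542. It was 1.24-fold higher, with a log2 change of 0.31 ± 0.06 (interval 0.17 to 0.44, limma adjusted p = 0.0217). Scd2 moved the other way, from 5.61, 5.70 and 5.58 in DMSO to 5.23, 5.34 and 5.32 in SB431542. Its log2 change was -0.33 ± 0.06 (interval -0.48 to -0.18, adjusted p = 0.0213), and its groups did not overlap. The Scd genes are close copies of each other, so a probe may take up signal from more than 1 of them. Scd3, from the list of other lipid genes, had a log2 change of 0.01 ± 0.08 and did not pass.

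Acly, which makes cytosolic acetyl-CoA from citrate, read 5.79, 5.67 and 5.66 in DMSO and 5.80, 5.84 and 5.94 in SB431542. The values did not overlap, and the log2 change of 0.15 ± 0.07 did not pass (adjusted p = 0.202). Acaca, the carboxylase that commits acetyl-CoA to fatty acids, was lower on every SB431542 array by a small margin (change -0.09 ± 0.05, interval -0.22 to 0.03). Fasn, the fatty acid synthase, read 0.29, -0.10 and 0.15 in DMSO, a range that held all SB431542 values (lowest -0.000904, highest 0.06). Fads2, a polyunsaturated fatty acid desaturase gene, read -2.02, -2.07 and -2.13 in DMSO and -2.09, -2.11 and -2.81 in SB431542. The change of -0.26 ± 0.20 rested on SB431542 replicate 3, the array on slide 2, and was -0.02 without it. The elongase gene Elovl6 (0.12 ± 0.06) and the desaturase gene Fads1 (0.16 ± 0.07) did not pass.

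Of the 6 genes for sterol transport, esterification and efflux 0 passed the limma test (1 had an unadjusted p under 0.05). Abca1, the LXR-driven exporter of cholesterol to apolipoproteins, had the largest change of the 37 genes in size. It read -2.45, -2.61 and -2.52 in DMSO and -2.94, -3.05 and -2.64 in SB431542. All SB431542 values were lower, but replicate 3 lay close to DMSO, and the change of -0.35 ± 0.12 did not pass (interval -0.64 to -0.07, limma adjusted p = 0.112). Without that array, which is the fit on slide 1 alone, it was -0.47 (adjusted p = 0.0232). Abcg1, the other LXR-driven exporter, read -1.01, -0.78 and -0.63 in DMSO and -0.63, -0.54 and -0.65 in SB431542, and its change lay on the opposite side of 0 (0.20 ± 0.10, adjusted p = 0.283). Mylip, an LXR target that marks the LDL receptor for breakdown, had a log2 change of 0.15 ± 0.09. Soat1, which esterifies cholesterol for storage, was higher on every SB431542 array (0.17 ± 0.09, adjusted p = 0.278). Stard4, a sterol carrier, had a log2 change of -3.25e-05 ± 0.07 and an interval of -0.16 to 0.16, and Npc1, which moves cholesterol out of lysosomes, one of -0.04 ± 0.06.

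A single probe represented 25 of the 37 genes and several probes represented 12. Of the 50 probes 49 were tested one by one, and the same 4 genes' probes passed. Tested probes of 5 genes lay on both sides of 0. The brightest and the other probe gave 0.15 and -0.14 for Acly, -0.11 and 0.14 for Fdft1, 0.11 and -0.03 for Mvk, -0.05 and 0.02 for Nsdhl, and -3.25e-05 and 0.10 for Stard4. None of those 10 probes passed. Scap, Scd1, Scd2 and Cyp51 each had 1 probe, so no second probe bears on their changes.

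With single arrays left out, the log2 change ran from 0.27 to 0.31 for Scap, from 0.28 to 0.33 for Scd1, from -0.36 to -0.30 for Scd2 and from -0.31 to -0.24 for Cyp51. The limma adjusted p ran from 0.0285 to 0.0860, from 0.0420 to 0.0840, from 0.0388 to 0.0866 and from 0.0309 to 0.117 in the same order. Scaling by quantiles or by the median, normexp correction with quantile normalization, and the authors' deposited log2 values each left all 4 past the threshold. With trended, robust variance moderation the adjusted p was lowest, from 0.0015 for Scd2 to 0.0093 for Cyp51.

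**Figure D3:**
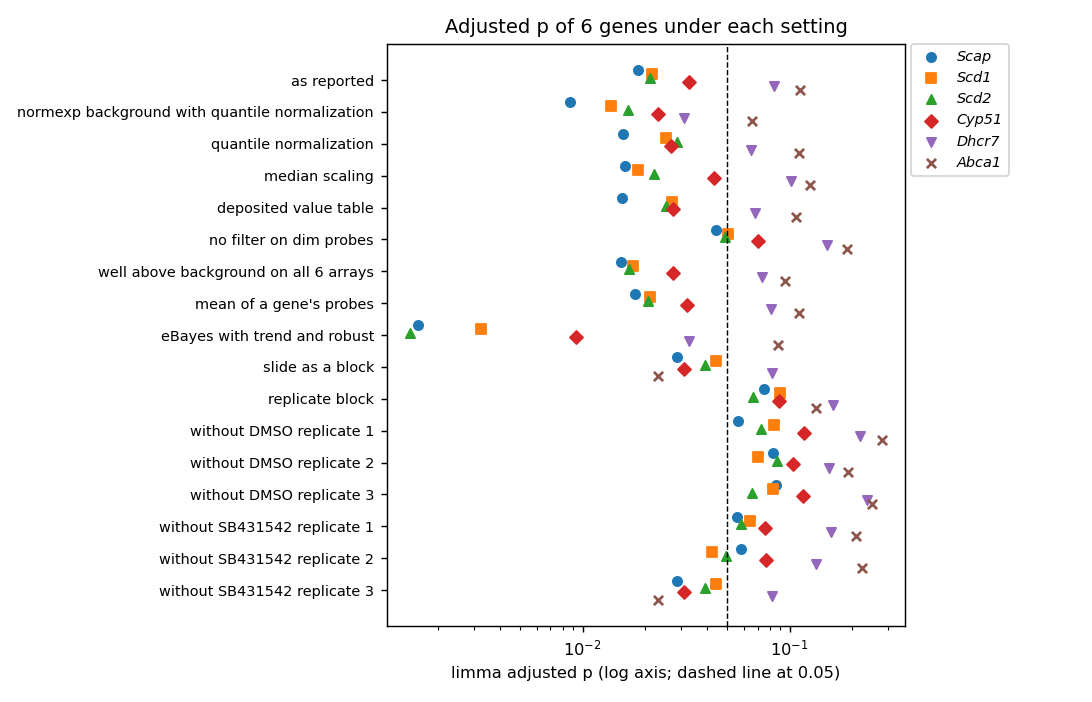
Limma adjusted p (log axis) of the 4 genes that passed and of Dhcr7 and Abca1 under each processing setting, with the threshold of 0.05 dashed. The 4 genes lie left of the line as reported and right of it whenever a DMSO array is left out.

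Of 59 other genes of lipid metabolism on 4 further lists, 56 were tested, and 5 rose and 5 fell (17.9%, against 12.6% of features). Of 13 other sterol genes tested 0 passed in limma (2 had an unadjusted p under 0.05), and their median log2 change was 0.04. Of 23 other fatty acid and lipid synthesis genes 3 rose and 3 fell, with a median of 0.01. Slc25a1, the mitochondrial citrate carrier that supplies Acly, rose by 0.41 ± 0.07 on the log2 scale, from values of 2.64 to 2.66 in DMSO to 2.94 to 3.18 in SB431542. The elongase gene Elovl7 (0.39 ± 0.07) and Acsl4, which activates polyunsaturated fatty acids (0.37 ± 0.05), rose as well. Mid1ip1, an activator of the Acaca enzyme, fell by 0.42 ± 0.08 from 2.64 to 2.74 in DMSO to 2.16 to 2.40 in SB431542, and Lpin1, a phosphatidate phosphatase gene (-0.44 ± 0.10), and Pnpla3, a lipid droplet protein gene (-0.45 ± 0.09), also fell.

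Of 6 tested LXR and efflux genes 2 rose. The apolipoprotein gene Apoe read 5.87, 5.87 and 5.95 in DMSO and 6.45, 6.45 and 6.40 in SB431542, a log2 change of 0.53 ± 0.05 (limma adjusted p = 0.00309). Nceh1, a cholesterol ester hydrolase gene, changed by 0.42 ± 0.05. Among 14 fatty acid oxidation genes 2 fell, and the rest did not pass. Cpt1a, the gate enzyme for fatty acid entry into mitochondria, read 3.20, 3.19 and 3.18 in DMSO and 2.54, 2.54 and 2.40 in SB431542. Its log2 change of -0.70 ± 0.06 (adjusted p = 0.00184) was -0.58 on its other probe. Acadl, the long-chain acyl-CoA dehydrogenase gene, fell by 0.46 ± 0.06. Cpt1a, Acadl, Apoe, Nceh1 and Acsl4 passed in all 18 settings, that reported included. Slc25a1, Elovl7 and Mid1ip1 passed in 12, Lpin1 in 10 and Pnpla3 in 8. The other Pnpla3 probe gave -0.51 ± 0.11 (limma adjusted p = 0.0441 with every probe tested). Leaving out any DMSO array ended the calls of Slc25a1, Elovl7, Mid1ip1 and Lpin1, as did leaving out DMSO replicate 1 or 3 for Pnpla3. So did leaving out SB431542 replicate 1 for Elovl7, Mid1ip1, Lpin1 and Pnpla3, replicate 2 for Slc25a1, Lpin1 and Pnpla3, and replicate 3 for Pnpla3.

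**Figure D4:**
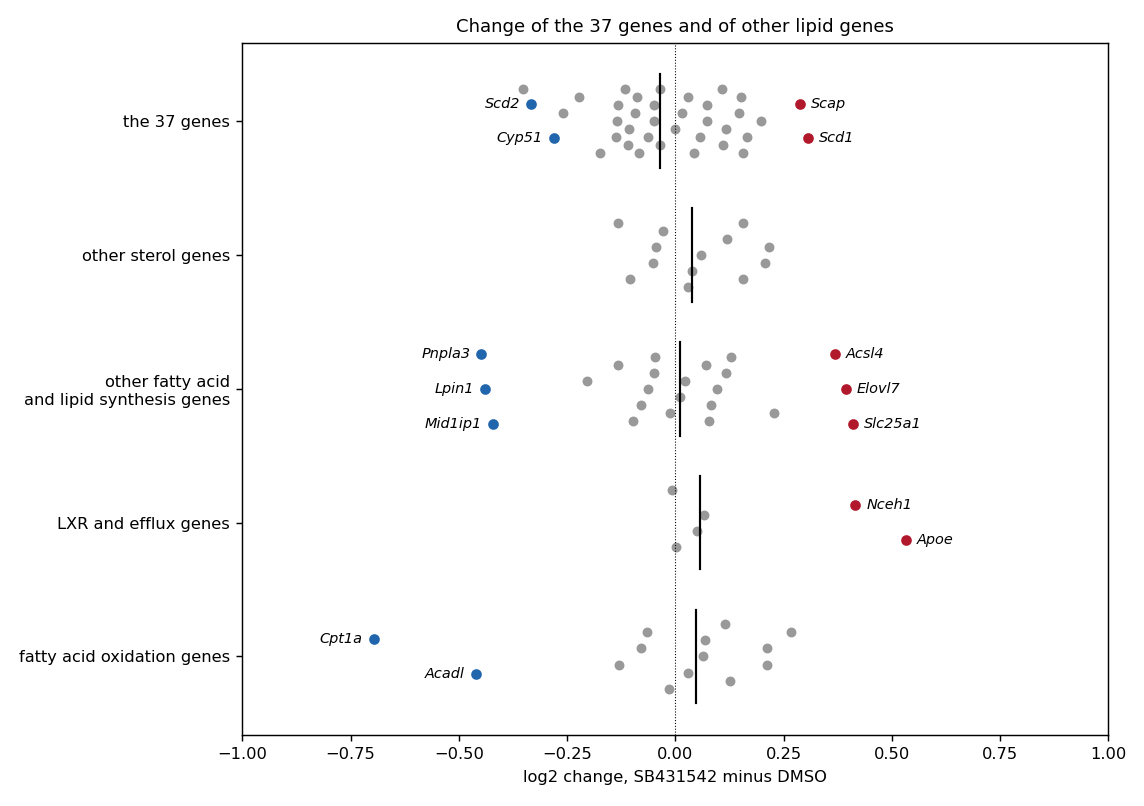
Log2 change (SB431542 minus DMSO) of the 37 genes and of the tested genes of 4 other lipid lists, 1 point a gene, with genes that rose in red, genes that fell in blue, the rest in grey, and black bars at each list's median. The 5 medians lie between -0.04 and 0.06, and Cpt1a, at -0.70, lies farthest from 0.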

How the data were processed

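Total RNA was labelled with Cy3 and read on 1-colour Agilent arrays, 1 per sample. The deposited scanner files hold intensity values per spot, background-subtracted and detrended by Agilent Feature Extraction (version 10.7 per the submitters' processing notes) and not normalized between arrays, per the file headers. Their flags are scores of 0 or 1, per the file headers. A table of log2 values deposited by the authors, with its normalization not given in the sources used here, served as an alternative.

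Outlier spots were left out, which removed 81 of 55681 probes, and repeat spots were averaged per probe. Saturated spots numbered 0. The log2 processed signal minus the array's 75th percentile was used. Accessions were matched without version to RefSeq genes (GRCm38.p6), which named 27200 of 55600 probes. The brightest probe stood for a gene. Groups were compared with limma 3.58.1 (R 4.3.3, Python 3.11.15), two-sided. The number of arrays limits the precision. The fit was tested on simulated data. The files hold no mean spot signal, so normexp (offset 50, followed by quantile normalization) used the median signal.

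The genes and lists were chosen with earlier results of these data known. Every gene of the 37 that passed is named with all values, the others by non-overlap, role or disagreeing probes, and the genes of other lists that passed.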

Additional observations from a re-analysis of the deposited data

How the results depend on the processing

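Of the 37 genes, 2 rose and 2 fell among 3257 changed features. When dim probes were kept, so that 37033 features were tested, the counts were 1, 1 and 2098. At an adjusted p under 0.01 they were 0, 0 and 1222. With the replicate number as a block they were 0, 0 and 1567. Same-numbered arrays deviated from their group means with correlations of 0.0017, 0.072 and -0.058, and differently numbered arrays with -0.078 to 0.075. With 3 arrays a group, these correlations cannot show whether same-numbered samples were handled together. Leaving out single arrays, which leaves fewer samples, gave 0 to 2 genes that rose, 0 to 3 that fell and 1467 to 2910 changed features. With slide as a block, the fit without SB431542 replicate 3, they were 2, 3 and 2910. No call among the 37 changed sign over 17 alternatives, while 8 genes that did not pass crossed 0 in at least 1. Of 33 genes not past the threshold, 2 passed it in some alternative, Dhcr7 and Abca1. The median log2 change of all probes was 0.01 to 0.03 under the 5 scalings.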

Other observations

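Families related to the 37 genes by symbol were looked at after the values had been seen. They were Elovl, Scd, Fads, Acsl, Acss, Stard, Abca, Abcg, Osbpl, Lpin, Apo, Fabp, Pla2g and Plin, and only some genes that passed are named here. Of 17 tested Pla2g genes 1 rose and 5 fell, of 16 Apo genes 2 rose and 3 fell, and of 8 Abca genes 0 rose and 0 fell. Over all features 5.19% rose and 7.38% fell. Of 4 tested Fads genes, Fads3 (0.999 ± 0.14, limma adjusted p = 0.00878) and Fads6 (0.71 ± 0.10) rose, while Fads1 and Fads2 did not pass. The other Fads6 probe gave 0.40 ± 0.11 and did not pass on its own (limma adjusted p = 0.0779 with every probe tested). Fads3 read -2.77, -2.99 and -3.30 in DMSO and -2.11, -1.96 and -1.99 in SB431542, without overlap. Of 3 tested Abcg genes, Abcg2, an efflux transporter gene expressed in many stem cells, fell by 1.46 ± 0.07 on the log2 scale, from 3.20, 3.24 and 3.22 in DMSO to 1.82, 1.82 and 1.63 in SB431542. Abcg4 rose by 0.32 ± 0.08 and passed in 8 of 18 settings, in none of those that left out a DMSO array or SB431542 replicate 1 or 2. With every probe tested, this Abcg4 probe did not pass (limma adjusted p = 0.0575). The other Abcg4 probe, at 0.46 ± 0.10, did (0.0355).

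The apolipoprotein gene Apod fell by 0.84 ± 0.05 on the log2 scale. The fatty acid binding protein gene Fabp3 (0.59 ± 0.07), the mitochondrial acetyl-CoA synthetase gene Acss1 (0.53 ± 0.05) and the lipid droplet coat gene Plin3 (0.40 ± 0.05) rose. Fads3, Abcg2, Apod, Fabp3, Acss1 and Plin3 passed in all 18 settings, and Fads6 in 17, all but the replicate block.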
